A study of Homo sapiens with 16 samples.

Results

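The 10 genes described here, DNMT1, UHRF1, HELLS, DNMT3A, DNMT3B, EZH2, SUV39H1, TET1, TET2 and TET3, encode enzymes and cofactors that write, copy or remove DNA methylation or lay down silencing marks on histone H3. They were taken by symbol, with no threshold on their values but with earlier results of these data known, and all 10 had a row in each of the authors' 4 deposited comparison tables, which together list 23396 genes. The study measured poly(A) RNA by RNA sequencing in U2OS, a human osteosarcoma line, in 16 libraries, and addressed the transcriptome regulated by the transcription factor RFX7. Transfected siRNA was either a control (siControl) or directed at RFX7 (siRFX7), and cells then had DMSO, the solvent, or 10 µM Nutlin-3a for 24 h. Nutlin-3a keeps MDM2 off p53, which is then no longer degraded. The 4 groups of 4 libraries were therefore siControl with DMSO, siControl with Nutlin-3a, siRFX7 with DMSO, and siRFX7 with Nutlin-3a. A transient siRNA lowers a transcript without removing the gene, and all libraries come from 1 tumour line. Nothing in the labels says that the 4 libraries of a group came from separate cultures, so p-values measure the spread between these libraries only. The deposited values are comparisons of pairs of groups and hold nothing per library, so each error given as ± is the authors' standard error (SE) over 4 against 4 libraries, and overlap between single libraries cannot be seen.

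RFX7 stood at 18.6% of its siControl level under DMSO and at 19.4% under Nutlin-3a, per the authors' deposited tables. CDKN1A and MDM2, direct targets of p53, rose by 3.24 ± 0.04 and 2.89 ± 0.04 on the log2 scale with Nutlin-3a in siControl (authors' deposited table). Of 10 osteoblast and mesenchymal markers, 7 were listed for Nutlin-3a in siControl, with base means (mean normalised read counts over the libraries of a comparison) of 432 for RUNX2, 371 for ALPL, 39039 for COL1A1, 31574 for SPARC and 84576 for VIM in the authors' deposited table. COL1A2 and BGLAP, the others listed, had base means under 100, and SP7, IBSP and TWIST1 had no row in any table. Among markers of other cell types, PTPRC and PECAM1 had base means of 5.21 and 2.66 in that deposited table of the authors, while the epithelial genes EPCAM and CDH1 had 191 and 121.

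DNA methylation is kept through cell division by DNMT1, a methyltransferase that acts on newly copied DNA. UHRF1 recognises the half-methylated sites behind the replication fork and recruits DNMT1, and HELLS, a nucleosome remodeller, opens packed chromatin for it. DNMT3A and DNMT3B place methyl groups on sites that had none. EZH2 is the catalytic subunit of Polycomb repressive complex 2 (PRC2), which methylates lysine 27 of histone H3, and SUV39H1 methylates lysine 9 of histone H3 in heterochromatin. TET1, TET2 and TET3 oxidise methylated cytosine, the first step of its removal. When p53 is active, p21, the product of CDKN1A, holds RB-family proteins in the state that represses E2F target genes. Many replication genes are such targets.

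Stretches at annotated starts of UHRF1, HELLS, EZH2, DNMT1 and DNMT3B are shown because E2F factors and NF-Y bind short motifs close to start sites. All 10 genes moved with Nutlin-3a in siControl, and the stretches of the other genes are not printed. RefSeq windows on GRCh38.p14, from 250 bases before to 50 bases after an annotated start, existed for all 10 genes, with 23 windows in all. Capitals mark the E2F core and CCAAT, each on either strand. Of the 4 forms of the E2F core searched, TTCCCGC was found in UHRF1, HELLS and TET3. The form TTGGCGC was found in HELLS and EZH2. DNMT1 and another start of UHRF1 held TTCGCGC, and the form TTGCCGC was found in none of the 10 genes. No form was found in the windows of DNMT3A, DNMT3B, SUV39H1, TET1 or TET2. Among these, SUV39H1 had the lowest mean Nutlin-3a response of all 10 genes, while TET3, with a core, fell little. The first 3 sequences are the 250 bases before a start of UHRF1 (chr19:4909251-4909500, plus strand), HELLS (chr10:94545538-94545787, plus strand) and EZH2 (chr7:148884292-148884541, minus strand), written 5′ to 3′. The fourth gives 30 bases around the match next to a start of DNMT1 (chr19:10194938-10194967, minus strand). The last is the same stretch of 250 bases for DNMT3B (chr20:32779602-32779851, plus strand), which holds CCAAT and no E2F core.
UHRF1: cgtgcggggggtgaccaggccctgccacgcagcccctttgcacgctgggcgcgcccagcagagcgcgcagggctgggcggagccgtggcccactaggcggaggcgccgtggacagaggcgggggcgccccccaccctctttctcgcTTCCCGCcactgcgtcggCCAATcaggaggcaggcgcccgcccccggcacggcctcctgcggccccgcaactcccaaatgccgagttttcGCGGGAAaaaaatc
HELLS: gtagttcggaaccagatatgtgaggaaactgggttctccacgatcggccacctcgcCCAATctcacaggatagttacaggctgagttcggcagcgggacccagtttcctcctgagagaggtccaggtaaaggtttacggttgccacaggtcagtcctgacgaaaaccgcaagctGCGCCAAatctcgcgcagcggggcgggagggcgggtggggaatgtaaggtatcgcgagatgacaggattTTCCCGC
EZH2: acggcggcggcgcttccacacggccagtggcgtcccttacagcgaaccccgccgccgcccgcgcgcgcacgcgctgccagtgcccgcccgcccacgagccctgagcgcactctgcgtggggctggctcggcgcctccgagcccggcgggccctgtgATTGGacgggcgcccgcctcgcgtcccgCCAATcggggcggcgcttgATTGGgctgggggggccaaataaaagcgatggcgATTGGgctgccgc
DNMT1: ccatcggtttccGCGCGAAaagccggggcg
DNMT3B: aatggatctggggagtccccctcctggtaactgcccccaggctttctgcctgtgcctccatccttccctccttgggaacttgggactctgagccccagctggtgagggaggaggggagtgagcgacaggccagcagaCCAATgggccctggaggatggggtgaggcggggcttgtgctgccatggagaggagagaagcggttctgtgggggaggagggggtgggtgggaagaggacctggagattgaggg

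E2F core letters occurred in a window of 5 of the 10 genes, DNMT1, UHRF1, HELLS, EZH2 and TET3, against 15.3% of 27305 genes with a window. By window the share was 6 of 23, or 26.1%, against 13.0% of 35116 windows. The 10 genes have more windows per gene than genes at large, which raises their count by gene. For comparison, 11 of 12 matched S phase genes held them. In EZH2 the match lies after the start, outside the bases printed above, which show its 4 CCAAT letters. CCAAT was present for 7 of the 10 genes, against 39.7% of all genes, but by window for 9 of 23, or 39.1%, against 34.6%, so the shares by window are close. The CHR element (TTTGAA or TTCGAA), bound by the DREAM repressor complex, was present for DNMT3A and TET2, against 19.5% of genes, and in 2 of the 23 windows, or 8.70%, against 16.4%. An RFX half-site (GTTGCCA or GTTGCTA) was present for HELLS, SUV39H1 and TET1, against 8.21% of genes, and in 3 of the 23 windows, or 13.0%, against 6.75%. DNMT3B, TET2 and TET3, the genes higher in siRFX7 than in siControl under both treatments, held none in these windows. For DNMT3B this covers only 1 window inside the gene, and the start of its gene model was not searched for any motif. All 4 motifs were searched on both strands, the letters of none contain those of another, and a match of letters is a description, not a site.

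The level of each gene in each group was worked out from the authors' deposited base means and fold changes, as mean normalised counts, with no value per library. Divided by the exon length of GENCODE 29, DNMT1 was the highest of the 10 in siControl with DMSO, at 1159 normalised counts per kb, followed by SUV39H1 at 792, UHRF1 at 524, TET3 at 439.7 and EZH2 at 397. DNMT3B stood at 221 per kb, HELLS at 109.8, TET2 at 99.9, DNMT3A at 77.3 and TET1 at 37.6. DNMT1 was thus the most abundant of the 3 DNA methyltransferase transcripts per kb, and DNMT3B exceeded DNMT3A per kb by 2.87 times in untreated control cells. With the longest transcript as the length, EZH2 and TET3 changed places, so those neighbours have no settled order. The tables give no error for a level, so neighbours in this order were not tested against each other.

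**Figure D1:**
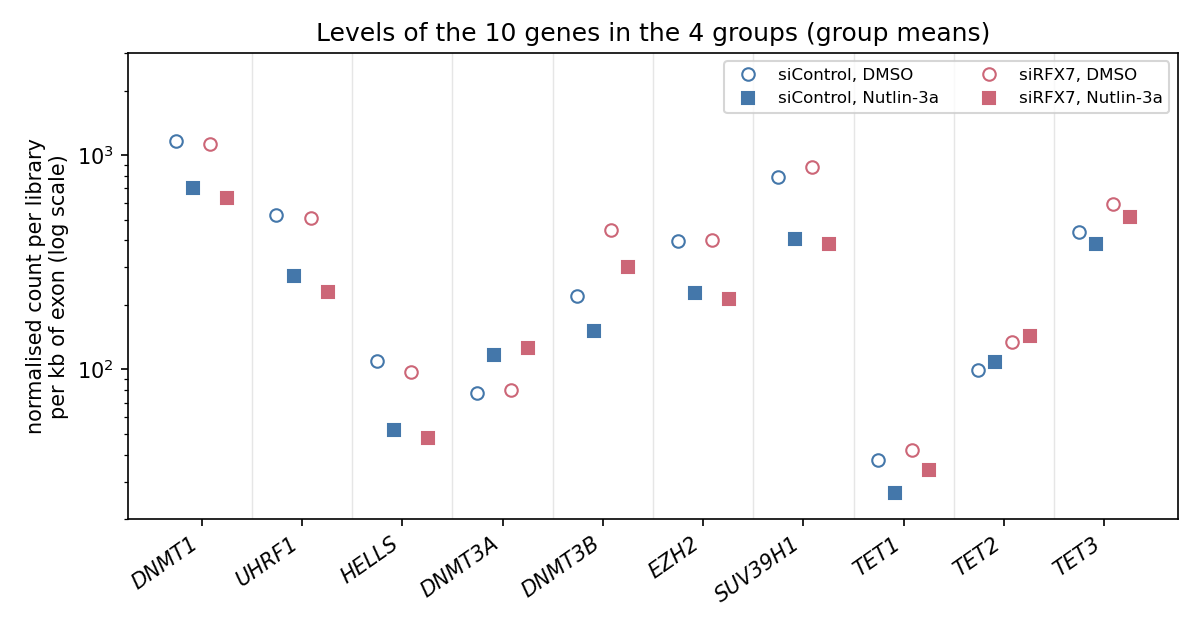
Mean normalised read counts per kb of exon (log axis) of the 10 genes in the 4 groups (blue siControl, red siRFX7, open DMSO, filled Nutlin-3a), worked out from the deposited base means and fold changes, with no error bars because no value of a single library was available. DNMT1, UHRF1, HELLS, EZH2 and SUV39H1 are lower in both Nutlin-3a groups, DNMT3A is higher in both, and DNMT3B, TET2 and TET3 are higher in the siRFX7 groups.

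Nutlin-3a lowered 8 of the 10 genes in siControl cells and raised 2, all at an adjusted p under 0.05 by the authors' DESeq2 test. Of all genes there, 37.9% passed, 18.3% higher and 19.6% lower, and the median log2 fold change was -0.64 over the 10 genes and 0.01 over all 23353 genes. With siRFX7, Nutlin-3a lowered 8 and raised 1 of the 10, where 39.1% of 21382 genes passed, 18.7% higher and 20.3% lower, with medians of -0.71 and 0.01. With a size of at least 0.25 also required, 1 gene was higher and 7 were lower in each siRNA group. Of all genes, 13.7% were higher and 12.1% lower in siControl, and 14.5% and 13.5% in siRFX7. All 10 genes had a base mean of at least 100, while the shares of all genes cover any base mean. For Nutlin-3a in siControl, 13525 of 23353 genes reached 100, and no share at like base mean was worked out.

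The maintenance genes fell together. DNMT1 (chromosome 19, 10133345 to 10231286, minus strand, GENCODE 29 on GRCh38, as for all gene positions here) averaged 11356 normalised counts in siControl with DMSO, 6857 in siControl with Nutlin-3a, 11064 in siRFX7 with DMSO and 6217 in siRFX7 with Nutlin-3a. Both Nutlin-3a groups were low. The authors' deposited tables give log2 fold changes of -0.73 ± 0.03 in siControl (adjusted p = 1.18e-105) and -0.83 ± 0.04 in siRFX7 (adjusted p = 1.53e-119). DNMT1 with Nutlin-3a was thus at 60.4% of its DMSO level in siControl, with a 95% interval of 57.7% to 63.1%, from the authors' deposited SE. An exon of DNMT1 overlaps S1PR2, a sphingosine phosphate receptor gene on the same strand, whose base mean of 272 in the authors' deposited table is small beside that of DNMT1.

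UHRF1 (chromosome 19, 4903080 to 4962154, plus strand) averaged 2694 counts in siControl with DMSO, 1402 with Nutlin-3a, 2609 in siRFX7 with DMSO and 1179 with Nutlin-3a. Its log2 fold changes with Nutlin-3a were -0.94 ± 0.05 in siControl (adjusted p = 1.64e-83) and -1.15 ± 0.05 in siRFX7 (adjusted p = 6.20e-103) in the authors' deposited tables. UHRF1 therefore fell further than the DNMT1 it recruits, to 52.0% and 45.1% of the DMSO level per the authors' deposited tables, though no test between genes was made. HELLS (chromosome 10, 94501434 to 94613905, plus strand) averaged 1114, 529, 988 and 485 counts in the same order of groups. Its Nutlin-3a values were -1.08 ± 0.08 (adjusted p = 2.57e-42) and -1.03 ± 0.07 (adjusted p = 5.10e-46) in the authors' deposited tables, the lowest of the 10 genes in siControl. HELLS and UHRF1 ended near the same share of untreated control cells, 43.6% and 43.7%, in siRFX7 cells with Nutlin-3a, and DNMT1 at 54.7%.

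The de novo enzymes moved in opposite directions. DNMT3A (chromosome 2, 25227855 to 25342590, minus strand) averaged 929 counts in siControl with DMSO and 1400 with Nutlin-3a, and 962 and 1518 in siRFX7. It rose by 0.59 ± 0.05 on the log2 scale in siControl (adjusted p = 8.16e-27) and by 0.66 ± 0.06 in siRFX7 (adjusted p = 1.35e-29) in the authors' deposited tables. DNMT3A was the only gene of the 10 that rose in both, since TET2 passed in siControl alone. DNMT3B (chromosome 20, 32762385 to 32809356, plus strand) averaged 1025 counts in siControl with DMSO, 701 with Nutlin-3a, 2076 in siRFX7 with DMSO and 1389 with Nutlin-3a. Its Nutlin-3a log2 fold changes were -0.55 ± 0.06 (adjusted p = 7.14e-18) and -0.58 ± 0.05 (adjusted p = 1.35e-25) in the authors' deposited tables. The per-kb ratio of DNMT3B to DNMT3A accordingly went from 2.87 to 1.30 with Nutlin-3a in siControl, and from 5.60 to 2.38 in siRFX7. The sizes of these ratios depend on the length used for each gene, while their fall with Nutlin-3a does not.

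Both histone methyltransferases fell. EZH2 (chromosome 7, 148807383 to 148884321, minus strand) averaged 1796 counts in siControl with DMSO, 1029 with Nutlin-3a, 1813 in siRFX7 with DMSO and 959.7 with Nutlin-3a. The authors' deposited tables give it -0.80 ± 0.05 in siControl (adjusted p = 2.69e-49) and -0.92 ± 0.06 in siRFX7 (adjusted p = 1.06e-60). EZH2P1, a pseudogene of EZH2 with its own row, has a base mean of 43.5 for siControl in the authors' deposited table, and reads could be split between them. SUV39H1 (chromosome X, 48695554 to 48709012, plus strand) averaged 2666, 1373, 2956 and 1299 counts in that order of groups. Its values of -0.96 ± 0.05 (adjusted p = 3.27e-90) and -1.19 ± 0.05 (adjusted p = 2.77e-112) in the authors' deposited tables gave it the lowest mean Nutlin-3a response of the 10 genes. An antisense gene, AC231533.1, overlaps an exon of SUV39H1, and AL138759.1 overlaps an exon of HELLS on the same strand, and neither had a row in the tables. Whether the counting used strand is not given in the sources used here, so reads of SUV39H1 and of its antisense partner cannot be told apart.

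The TET genes moved less. TET1 (chromosome 10, 68560656 to 68694482, plus strand), the least abundant of the 10 per kb, averaged 349.5 counts in siControl with DMSO, 246 with Nutlin-3a, 389.8 in siRFX7 with DMSO and 314 with Nutlin-3a. It fell by 0.51 ± 0.09 on the log2 scale in siControl (adjusted p = 6.81e-07) and by 0.31 ± 0.11 in siRFX7 (adjusted p = 0.0119) in the authors' deposited tables. TET3 (chromosome 2, 73986404 to 74108176, plus strand) averaged 5396, 4733, 7242 and 6311 counts, and its Nutlin-3a values were -0.19 ± 0.05 (adjusted p = 0.000860) and -0.20 ± 0.06 (adjusted p = 0.00492) in the authors' deposited tables. These are the smallest called falls among the 10 genes. TET2 (chromosome 4, 105145875 to 105279816, plus strand) averaged 1646, 1792, 2209 and 2367 counts. It rose by 0.12 ± 0.05 in siControl (adjusted p = 0.0404), and its value of 0.10 ± 0.06 in siRFX7 did not pass (adjusted p = 0.239) in the authors' deposited tables.

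**Figure D2:**
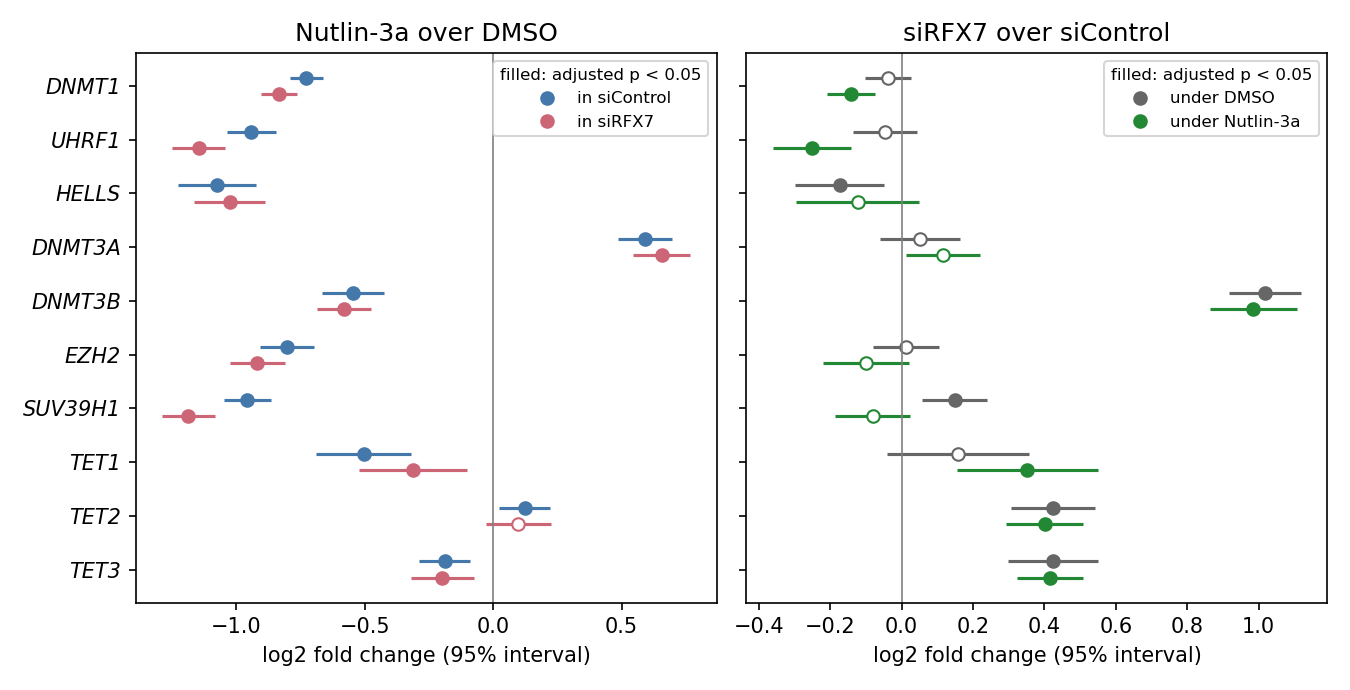
Authors' log2 fold changes of the 10 genes with Nutlin-3a (left) and with siRFX7 (right), with 95% intervals from the SE and filled points for an adjusted p under 0.05. With Nutlin-3a, 8 genes lie below 0 in both siRNA groups and DNMT3A lies near 0.6, while with siRFX7 DNMT3B lies near 1 and TET2 and TET3 near 0.4 under both treatments.

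The fall of these genes ran beside that of replication genes. All 15 of 15 listed S phase genes fell with Nutlin-3a in siControl and again in siRFX7, where 19.6% and 20.3% of all genes were lower. Their medians were -1.08 and -1.20, against 0.01 over all genes in each case. MCM2, a subunit of the replicative helicase, was at -1.18 ± 0.04 and GINS2, another helicase component, at -1.17 ± 0.06 in siControl, while TYMS, which makes thymidylate, was at -0.25 ± 0.04 (authors' deposited table). HELLS, SUV39H1 and UHRF1, at -1.08, -0.96 and -0.94, lie inside that range of the S phase list in the authors' deposited table, as do EZH2 and DNMT1. DNMT3B and TET1, at -0.55 and -0.51 in the authors' deposited table, lie inside it only through TYMS. The S phase gene next to TYMS, RRM1, was at -0.64 there, so these 2 fell less than the rest of the list. TET3, at -0.19 in the authors' deposited table, lies above the range, and DNMT3A and TET2 lie on the other side of 0. In bulk samples fewer cells in S phase and less RNA per cell cannot be told apart, and the part of cell cycle position in these values was not tested.

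DNMT3B, TET2 and TET3 were higher in siRFX7 than in siControl under both treatments. The labels do not say whether siRFX7 was a single siRNA or a pool. Loss of RFX7 and other effects of the siRNA cannot be told apart in these comparisons. Under DMSO, 4 of the 10 genes were higher and 1 was lower in siRFX7, and 37.4% of all 19511 genes tested passed, with 19.9% higher and 17.5% lower. Under Nutlin-3a, 4 were higher and 2 lower, where 32.6% of 20335 genes passed, 17.2% higher and 15.4% lower. The medians over the 10 genes, 0.10 and 0.02, lie close to those of all genes, -0.00 and -0.01. Here too the shares of all genes cover any base mean. With a size of at least 0.25 also required, 3 were higher and 0 lower under DMSO, where 11.5% of all genes were higher and 11.5% lower, and 4 were higher and 1 lower under Nutlin-3a, where 9.51% and 10.3% were.

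DNMT3B was higher in siRFX7 by 1.02 ± 0.05 on the log2 scale under DMSO (adjusted p = 2.18e-84) and by 0.99 ± 0.06 under Nutlin-3a (adjusted p = 1.54e-53), per the authors' deposited tables. It stood at 203% of the siControl level under DMSO, with a 95% interval of 189% to 217%, and at 198% under Nutlin-3a, with an interval of 182% to 216%, from the authors' deposited values. Both siRFX7 groups were thus above their siControl group, and these comparisons share no library. Only 33 of 13170 genes at a base mean of 100 or more had a higher fold change under DMSO, and 40 of 13177 under Nutlin-3a, per the authors' deposited tables. In siRFX7 cells with Nutlin-3a, DNMT3B averaged 136% of its level in untreated control cells, a pair of groups that no deposited table compares. Its 4 groups fell in the order siRFX7 with DMSO, siRFX7 with Nutlin-3a, siControl with DMSO and siControl with Nutlin-3a, and each neighbouring pair with a deposited comparison passed the test. DNMT3A did not share the change, with 0.05 ± 0.06 under DMSO (adjusted p = 0.527) and 0.12 ± 0.05 under Nutlin-3a (adjusted p = 0.0775), per the authors' deposited tables.

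TET2 was higher in siRFX7 by 0.42 ± 0.06 under DMSO (adjusted p = 2.30e-11) and by 0.40 ± 0.05 under Nutlin-3a (adjusted p = 5.60e-12), per the authors' deposited tables. TET3 had 0.42 ± 0.06 (adjusted p = 5.01e-10) and 0.42 ± 0.05 (adjusted p = 7.77e-17) there, in the same deposited tables of the authors. A writer and a pair of erasers of cytosine methylation were therefore all higher after knockdown. TET1, the other eraser, passed under Nutlin-3a, at 0.35 ± 0.10 (adjusted p = 0.00224), and its value under DMSO was 0.16 ± 0.10 (adjusted p = 0.228) in the authors' deposited tables. Fold changes between these conditions differed by 0.19 ± 0.14, with a 95% interval of -0.09 to 0.48, so a difference for TET1 was not detectable.

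The remaining differences between siRFX7 and siControl were small. HELLS was lower, at -0.17 ± 0.06, under DMSO (adjusted p = 0.0201), with -0.12 ± 0.09 under Nutlin-3a (adjusted p = 0.307), per the authors' deposited tables. SUV39H1 was higher by 0.15 ± 0.05 under DMSO (adjusted p = 0.00497) and at -0.08 ± 0.05 under Nutlin-3a (adjusted p = 0.269), per the authors' deposited tables. UHRF1 had -0.05 ± 0.05 under DMSO (adjusted p = 0.464) and fell by 0.25 ± 0.06 under Nutlin-3a (adjusted p = 6.11e-05), per the authors' deposited tables. DNMT1, its partner at the fork, had -0.04 ± 0.03 (adjusted p = 0.406) and fell by 0.14 ± 0.03 under Nutlin-3a (adjusted p = 0.000267), per the authors' deposited tables. For DNMT1 and UHRF1 the DMSO groups were thus not distinguishable, siControl with Nutlin-3a was lower, and siRFX7 with Nutlin-3a was lowest. The difference of the Nutlin-3a responses passed for neither, with an adjusted p of 0.650 for DNMT1 and 0.219 for UHRF1 by a normal test. A change with siRFX7 particular to Nutlin-3a was therefore not detectable. EZH2 passed under neither treatment, with 0.01 ± 0.05 (adjusted p = 0.860) and -0.10 ± 0.06 (adjusted p = 0.222) in the authors' deposited tables.

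**Figure D3:**
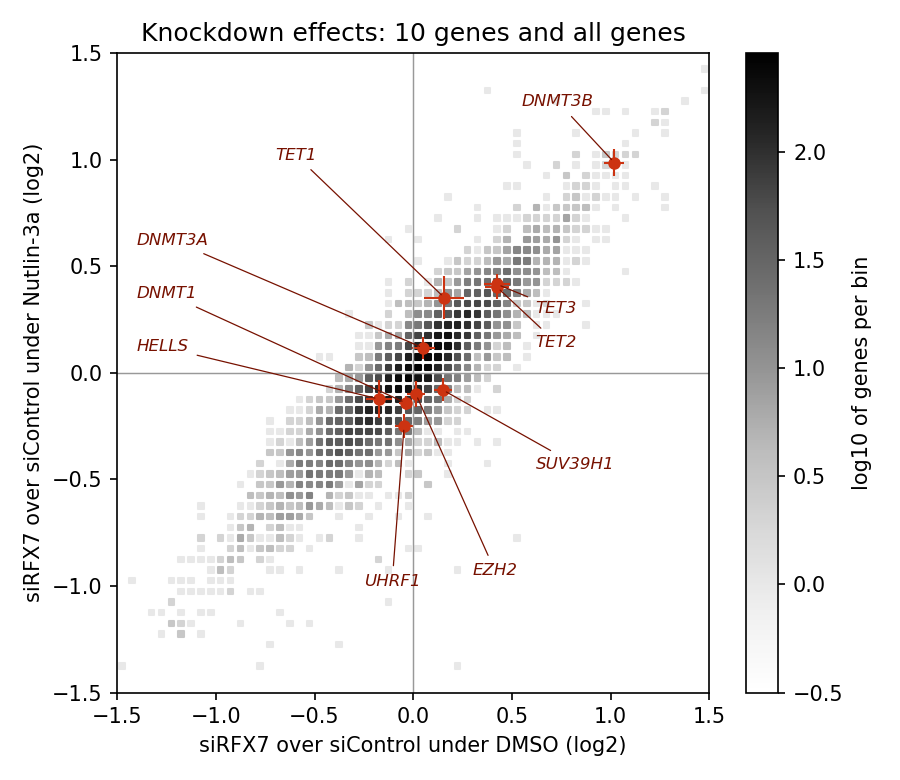
Authors' log2 fold changes of siRFX7 over siControl under DMSO (x axis) and under Nutlin-3a (y axis), with grey bins showing the log10 number of genes at a base mean of 100 or more and red points the 10 genes with SE bars; bins beyond the axes are not drawn. DNMT3B lies near 1 on both axes, at the upper edge of the grey cloud, TET2 and TET3 lie near 0.4, and the other genes lie within 0.4 of 0 on both axes.

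The 3′ UTR of DNMT3B was examined because siRNAs, the control included, can also lower other transcripts through short matches. A pair of words had been picked by an earlier scan of the same knockdown fold changes: the hexamer GACGTA, more frequent in 3′ UTRs of raised genes, and the heptamer GTATCTA, more frequent in those of lowered genes. The hexamer was present in 4 of 6 coding transcripts of DNMT3B in GENCODE 29 and in no transcript of the other 9 genes, TET2 and TET3 included. It is shown in capitals in 30 bases of the 3′ UTR (chr20:32809224-32809253, plus strand, GRCh38).
DNMT3B 3′ UTR: aactggagccacGACGTAacaaatatgggg
Of all coding genes with a 3′ UTR, 4.62% of 19126 held the hexamer. Of 11170 at a base mean of 100 or more in both siRFX7 tables, 609 held it, and their median log2 fold change was 0.16 under both treatments, against 0.01 without the word. DNMT3B, at 1.02 and 0.99 in the authors' deposited tables, lies well above that median. The heptamer was present in none of the 10 genes, against 7.64% of all coding genes. Since the words came from these same fold changes they are no independent evidence, and the part of the hexamer in the change of DNMT3B was not tested. The hexamer goes with genes that are higher in siRFX7 relative to siControl. Effects of both siRNAs enter that comparison and cannot be told apart here.

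None of the 10 genes differed in its Nutlin-3a response between siRFX7 and siControl at an adjusted p under 0.05, where 0.937% of 21339 genes passed. The value in siControl was subtracted from that in siRFX7 on the log2 scale, with a normal test and Benjamini-Hochberg adjustment, and 3 of the 10 had an unadjusted p under 0.05, against 6.32% of all genes. SUV39H1 came closest, at -0.23 ± 0.07, with a 95% interval of -0.37 to -0.09 and an adjusted p of 0.0887, which ranged from 0.0575 to 0.361 over the alternatives tried. UHRF1 had -0.21 ± 0.07, with an interval of -0.35 to -0.07 and an adjusted p of 0.219. DNMT1 had -0.11 ± 0.05, with an interval of -0.20 to -0.01 and an adjusted p of 0.650. All 3 are genes that fell with Nutlin-3a, and their fall was the larger one in siRFX7 by these values. For DNMT3B the difference was -0.03 ± 0.08, with an interval of -0.19 to 0.13. A change of response as large as its change with siRFX7 lies outside the interval. MCM2, of the S phase list, did pass, at -0.20 with an adjusted p of 0.0170 (0.764% of genes passed below 0 and 0.173% above), but not with statistics divided by a robust SD, where its adjusted p was 0.165. All 15 S phase genes had differences below 0, with a median of -0.15 against -0.00 over all genes.

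**Figure D4:**
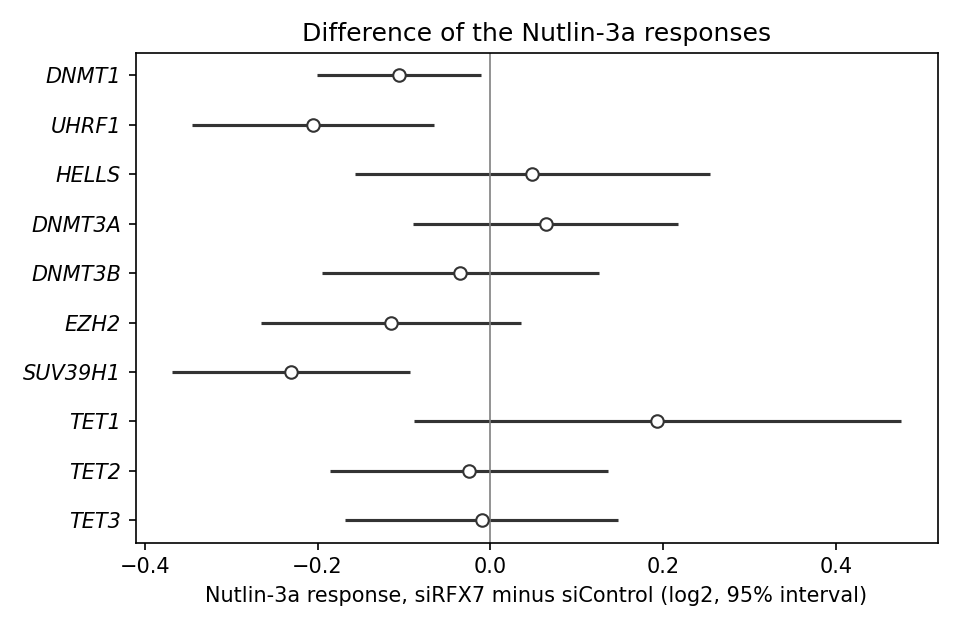
Difference of the Nutlin-3a responses (siRFX7 minus siControl, log2) of the 10 genes, with 95% intervals from the deposited SEs. The intervals of SUV39H1, UHRF1 and DNMT1 lie below 0 before adjustment over all genes, and those of the other 7 genes include 0.

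Partners of the 10 genes were read by lists of known roles. The counts stand against the shares of all genes called: with Nutlin-3a 18.3% were higher and 19.6% lower in siControl, and 18.7% and 20.3% in siRFX7. With siRFX7 the shares were 19.9% higher and 17.5% lower under DMSO, and 17.2% and 15.4% under Nutlin-3a. These shares cover genes of any base mean, while most listed genes had a base mean of at least 100. No share at like base mean was worked out, so a count above a share is not shown to be particular to a list. Among 8 partners of maintenance methylation, 7 fell with Nutlin-3a in siControl and all 8 in siRFX7, with medians of -0.30 and -0.36, against 19.6% and 20.3% of all genes lower. CDCA7, which activates HELLS, was at -0.84 ± 0.08, and PCLAF, a PCNA-bound protein that helps to bring DNMT1 to the fork, at -0.79 ± 0.11 in siControl (authors' deposited table). UHRF2, a relative of UHRF1, was at -0.25 ± 0.07 and ZBTB24, an activator of CDCA7, at -0.26 ± 0.06 in that deposited table of the authors. PCNA, the sliding clamp, did not pass in siControl, at -0.04 ± 0.04 (adjusted p = 0.43), and fell by 0.26 ± 0.04 with siRFX7 (authors' deposited tables). With siRFX7, 4 of the 8 were lower under DMSO and 5 under Nutlin-3a, none was higher, and USP7, a deubiquitinase that protects DNMT1 and UHRF1, had -0.37 ± 0.04 and -0.33 ± 0.04 in the authors' deposited tables. For the de novo enzymes, 7 of 8 partners and genes of the HUSH silencing complex were listed. With Nutlin-3a in siControl 1 rose and 3 fell, and in siRFX7 2 rose and 3 fell. NSD1, whose mark on lysine 36 of histone H3 guides DNMT3A, rose by 0.29 ± 0.04 in siControl, while NSD2, which makes the same mark, was at -0.59 ± 0.03 and SETD2, whose mark guides DNMT3B, at -0.26 ± 0.04 in the authors' deposited table. NSD2 was also higher in siRFX7, by 0.41 ± 0.03 and 0.37 ± 0.04, in the authors' deposited tables, with 2 of the 7 higher and 2 lower under DMSO and 4 and 1 under Nutlin-3a.

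Around EZH2, 6 of 11 other PRC2 genes fell and 2 rose with Nutlin-3a in siControl, with a median of -0.20, and 7 fell in siRFX7, with a median of -0.30. PHF19, a targeting subunit, was at -0.70 ± 0.04 and RBBP4, a histone-binding subunit, at -0.48 ± 0.04, while EZH1, the alternative catalytic subunit, rose by 0.25 ± 0.08 in siControl (authors' deposited table). With siRFX7, 5 of the 11 were higher under DMSO and 4 under Nutlin-3a, against 19.9% and 17.2% of all genes, and none was lower, against 17.5% and 15.4%. MTF2, a targeting subunit, had 0.60 ± 0.06 and 0.54 ± 0.06, and JARID2, a cofactor, 0.54 ± 0.06 and 0.34 ± 0.05 in the authors' deposited tables, whereas EZH2 passed in neither. Around SUV39H1, 9 of 11 genes of lysine 9 methylation and HP1 fell with Nutlin-3a in siControl and 9 in siRFX7, where 1 rose. SUV39H2, its relative, was at -0.65 ± 0.07 and CBX5, which encodes HP1 alpha, at -0.48 ± 0.05 in siControl (authors' deposited table). With siRFX7 3 of the 11 were higher and 3 lower under DMSO, and 2 and 3 under Nutlin-3a, counts near the shares of all genes (19.9% and 17.5%, then 17.2% and 15.4%). Lower under both was SETDB1, another lysine 9 methyltransferase, at -0.26 ± 0.05 under both treatments in the authors' deposited tables.

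Of 14 genes that act with or on the TET enzymes, 13 were listed, and 5 rose and 4 fell with Nutlin-3a in siControl, and 5 rose and 5 fell in siRFX7. GADD45A, a p53 target linked to demethylation, rose by 0.75 ± 0.05, and XRCC1, a scaffold of base excision repair, was at -0.48 ± 0.06 in siControl (authors' deposited table). MBD4, a glycosylase that acts on deaminated methylcytosine, was at -0.34 ± 0.05 there, and SMUG1, a uracil glycosylase, rose by 0.20 ± 0.07 (authors' deposited table). With siRFX7, 5 of the 13 were higher and 6 lower under DMSO, against 19.9% and 17.5% of all genes, and 3 and 6 under Nutlin-3a, against 17.2% and 15.4%. TDG, the glycosylase that removes oxidised methylcytosine, was higher by 0.42 ± 0.07 and 0.51 ± 0.08, alongside TET2 and TET3, while IDH2, which makes the TET cofactor 2-oxoglutarate, had -0.52 ± 0.10 and -0.42 ± 0.11 in the authors' deposited tables. GADD45B, another GADD45 protein, had -0.49 ± 0.07 and -0.63 ± 0.07 in the authors' deposited tables. Of 9 histone demethylases, 3 rose and 3 fell with Nutlin-3a in siControl, and 2 rose and 3 fell in siRFX7. KDM4B, a lysine 9 demethylase and known p53 target, rose by 1.03 ± 0.06 in siControl, opposite in sign to SUV39H1, in the authors' deposited table. KDM4A, its relative, rose by 0.42 ± 0.05, and KDM1A, a lysine 4 demethylase, was at -0.31 ± 0.03 (authors' deposited table for siControl). With siRFX7 5 of the 9 were higher and 1 lower under DMSO, and 2 and 2 under Nutlin-3a, the latter near the shares of all genes just given. KDM3A, which also acts on lysine 9, had 0.51 ± 0.05 and 0.28 ± 0.05 in the authors' deposited tables.

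Of 10 readers of methylated DNA and associated corepressors, 2 rose and 6 fell with Nutlin-3a in each siRNA group. In siControl ZBTB38 rose by 0.38 ± 0.05 and ZBTB4 by 0.33 ± 0.05, while MBD3, a subunit of the NuRD corepressor, was at -0.38 ± 0.04 and HDAC2, a histone deacetylase, at -0.35 ± 0.04 (authors' deposited table). With siRFX7, 6 of the 10 were higher and none lower under DMSO, against 19.9% and 17.5% of all genes, and 4 were higher and 1 lower under Nutlin-3a, against 17.2% and 15.4%. MBD1 had 0.33 ± 0.05 and 0.33 ± 0.04, MBD2 0.28 ± 0.05 and 0.31 ± 0.05, and ZBTB38 0.36 ± 0.05 and 0.31 ± 0.05 in the authors' deposited tables. All 3 of these genes encode proteins that bind methylated CpG sites. Of 10 listed genes of methyl donor supply, 2 rose and 6 fell with Nutlin-3a in siControl, 2 and 5 in siRFX7, led by SHMT1, a folate-cycle enzyme, at -0.76 ± 0.05 in siControl (authors' deposited table). MTHFD1, another folate enzyme, was at -0.54 ± 0.04 (authors' deposited table). With siRFX7 2 of these 10 were higher and 1 lower under DMSO, and 3 and 2 under Nutlin-3a, near those shares of all genes. AHCY, which clears the inhibitory product of methylation, moved little with Nutlin-3a, at 0.09 ± 0.03 in the authors' deposited table. The S phase list, by contrast with its Nutlin-3a values, had 3 of 15 higher and 3 lower with siRFX7 under DMSO, near the shares of all genes, and 1 higher and 7 lower under Nutlin-3a, against 17.2% and 15.4%.

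**Figure D5:**
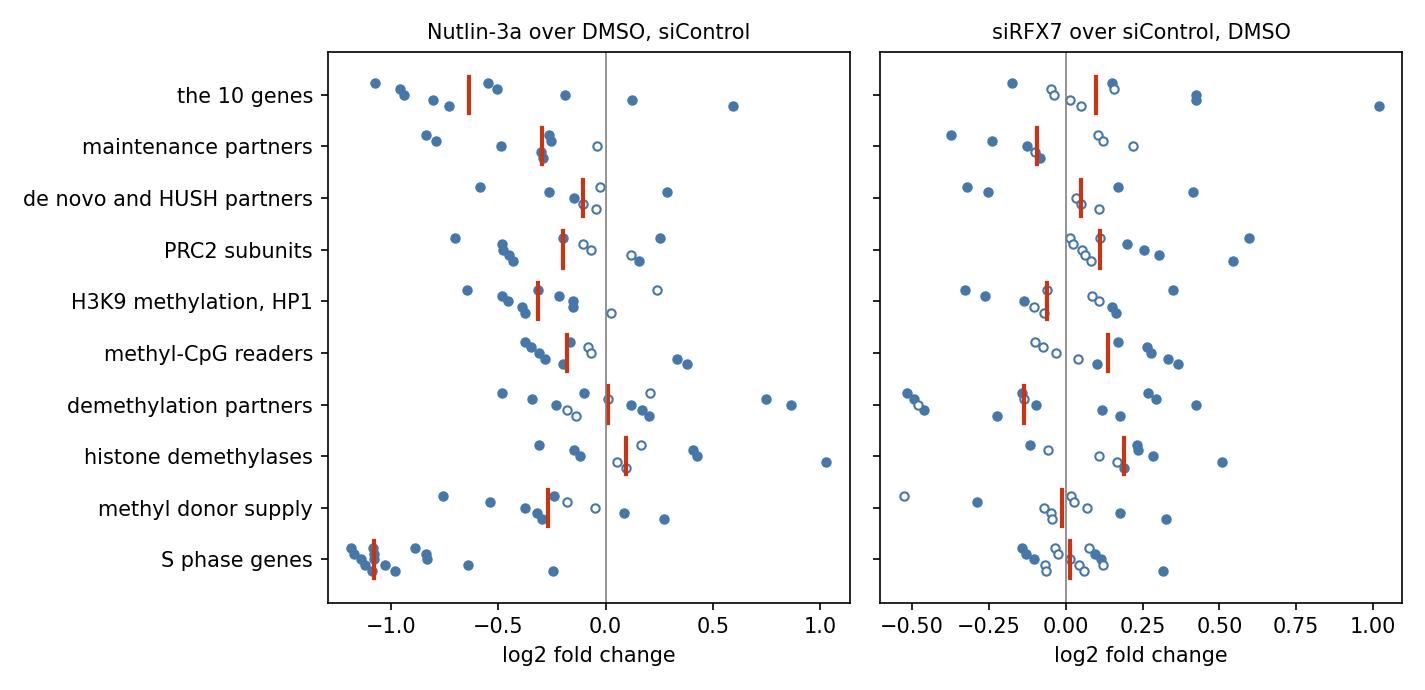
Authors' log2 fold changes of the 10 genes and of the genes of 9 lists with Nutlin-3a in siControl (left) and with siRFX7 under DMSO (right), filled points for an adjusted p under 0.05, open points otherwise, and a red bar for the list's median. The S phase and maintenance lists lie wholly below 0 with Nutlin-3a, and with siRFX7 the lists spread on both sides of 0 apart from PRC2, where all 11 genes lie above 0.

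Germline genes that are methylated in somatic cells give an indirect readout of silencing. Of 13 such genes, 6 were listed for Nutlin-3a in siControl and 3 in each other table, HORMAD1, STK31 and PIWIL2. HORMAD1, a meiotic chromosome protein, rose by 0.66 ± 0.19 with Nutlin-3a in siRFX7 (adjusted p = 0.0015) and was lower in siRFX7, at -0.64 ± 0.17, under DMSO (adjusted p = 0.001) in the authors' deposited tables, comparisons that share the siRFX7 DMSO libraries. It did not pass with Nutlin-3a in siControl, at 0.31 ± 0.15 (adjusted p = 0.094), or with siRFX7 under Nutlin-3a, at -0.28 ± 0.16 (adjusted p = 0.18), per the authors' deposited tables, and its difference of responses had an adjusted p of 0.973. MAEL passed with Nutlin-3a in siControl at a base mean of 2.76 in the authors' deposited table, too low for a stable fold. STK31 and PIWIL2 passed in no table. The files hold no methylation measurement, so DNA methylation itself was not analysed here.

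Genes most like a given gene were found by the Euclidean distance over the 4 log2 fold changes. The search covered 12077 genes at a base mean of 100 or more in every table, and left out genes with clone or LINC names. For SUV39H1, the lowest by the mean of both Nutlin-3a log2 fold changes (HELLS was lower in siControl), they were HAUS8 (distance 0.0544), PSMC3IP (0.0749) and CENPO (0.0946). For DNMT3A, the highest by that mean, they were SFN (0.0194), DHX32 (0.0401) and PARVG (0.0541). DNMT3B was looked at after its value was seen, and no gene of that search was nearer to it than XIRP1 at 0.299. XIRP1 also fell with Nutlin-3a, at -0.65 and -0.70, and was higher in siRFX7, at 0.84 and 0.80, in the authors' deposited tables. These distances describe 4 comparisons that share groups, and how often the pattern of DNMT3B occurred was not counted.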

How the data were processed

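Poly(A) RNA of U2OS cells was sequenced in 16 libraries, 4 in each of 4 groups, each assigned from its title, from 500 ng RNA with a stranded kit per the labels' protocols. The submitters' processing notes name bcl2fastq 2.19.1.403, Trimmomatic 0.39, cutadapt 2.10, FastQC 0.11.9, SAMtools 1.10, Picard, featureCounts 1.6.5, DESeq2 1.20.0 and the build hg38. The aligner, the annotation and the strand setting of the counting are not given in the sources used here. The deposited files were the authors' 4 DESeq2 comparison tables. Per the file headers, the base mean is a signal the authors computed as the mean normalised count. The deposited log2 fold change and its SE are on the log2 scale, and whether fold changes were shrunken is not stated. The deposited Wald statistic, a score, equalled their ratio to within 1.85e-13. The deposited p-value and adjusted p-value of the authors were used as given, with calls at an adjusted p under 0.05 over all genes of a table. The direction of each table was set from RFX7, CDKN1A and MDM2 and from closure over 19344 genes in all 4 tables. Depth per library is unknown, because the tables hold no value of a single library.

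Group levels were worked out from base mean and fold change, on the scale of the siControl Nutlin-3a table, and the other route to the siRFX7 Nutlin-3a level differed by at most 0.151%. The difference of the Nutlin-3a responses is siRFX7 minus siControl, from tables that share no library. Its SE came from both deposited SEs, with a two-sided normal p and Benjamini-Hochberg adjustment over 21339 genes. The step was run on simulated data whose errors were drawn from the same deposited SEs. That run checks the arithmetic and cannot show whether those SEs are too small. Nutlin-3a in siControl shares its DMSO libraries with the knockdown under DMSO and its Nutlin-3a libraries with the knockdown under Nutlin-3a. Positions and lengths came from GENCODE 29, which held 99.9% of the identifiers, and promoters from RefSeq. Work was done in Python 3.11.15 with pandas 2.3.3, numpy 2.4.6, scipy 1.17.1 and matplotlib 3.10.9.

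The 10 genes and all lists were chosen with earlier results of these data known. Named list genes were the 2 lowest and 2 highest called genes with Nutlin-3a in siControl at a base mean of at least 100, those whose response differed, and those called with siRFX7 in 1 direction under both treatments by at least 0.25; a few of these are not named in the text. Alternatives were an adjusted p under 0.01, a size of at least 0.25, a base mean of at least 100, centring on the median of all genes and, for differences, statistics scaled by their robust SD or taken from the siRFX7 tables.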

Additional observations from a re-analysis of the deposited data

Results flagged for a closer look

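The Nutlin-3a response of 4 list genes differed between siRFX7 and siControl by the test of the difference itself, with Benjamini-Hochberg adjustment over all genes. Of all 21339 genes, 0.937% passed. KDM4A was 1 of 9 histone demethylases, PCNA 1 of 8 maintenance partners, IDH1 1 of 13 listed TET partners and MCM2 1 of 15 S phase genes. No gene of the other lists passed. KDM4A, a lysine 9 demethylase, had a difference of -0.35 (adjusted p = 0.00199), from 0.42 ± 0.05 in siControl to 0.07 ± 0.06 in siRFX7 in the authors' deposited tables. PCNA had -0.22 (adjusted p = 0.00816), IDH1 had 0.26 (adjusted p = 0.00997) and MCM2 had -0.20 (adjusted p = 0.0170). With each statistic divided by a robust SD over genes of like base mean, KDM4A still passed, with an adjusted p of 0.0375, and PCNA, IDH1 and MCM2 did not, with 0.111, 0.0980 and 0.165.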

How the results depend on the processing

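Of the counts of the 10 genes called, siRFX7 under DMSO moved from 5 to 3 when a size of at least 0.25 was required, since the changes of HELLS and SUV39H1 are smaller than that. The other counts stayed within 1.5 times: 8 to 10 for Nutlin-3a in siControl, 8 to 9 in siRFX7, 5 to 6 for siRFX7 under Nutlin-3a, and 0 for the difference of the responses under all 6 alternatives. At an adjusted p under 0.01, TET2 with Nutlin-3a in siControl, TET1 with Nutlin-3a in siRFX7 and HELLS with siRFX7 under DMSO no longer passed. Centring kept the direction and call of all 50 single values. No paired analysis was possible because the tables hold no value of a single library; for the same reason no library could be left out, no other normalisation or count model could be run, and depth sets no stated limit.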

Other observations

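Of 6 markers of other cell types, 3 were listed in the siRFX7 tables, and 2 were higher in siRFX7 under both treatments. Of all genes, 19.9% were higher under DMSO and 17.2% under Nutlin-3a. CDH1, which encodes E-cadherin, stood at 179.8% of its siControl level under DMSO and at 215% under Nutlin-3a, and EPCAM had log2 fold changes of 0.54 ± 0.11 and 0.41 ± 0.11, and the highest of these 4 adjusted p-values by DESeq2 was 0.00121, in the authors' deposited tables. KRT14, the third, did not pass, at 0.26 ± 0.22 and 0.39 ± 0.18 in the authors' deposited tables. COL1A1, the collagen of bone, was also higher, by a log2 fold change of 0.38 ± 0.04 and 0.27 ± 0.05 in the authors' deposited tables. Of 6 osteoblast and mesenchymal markers listed there, 3 passed as higher and 0 as lower under DMSO. Under Nutlin-3a, 2 were higher and 1 was lower. Of all genes, 17.5% were lower under DMSO and 15.4% under Nutlin-3a. SPARC had 0.22 ± 0.03 and 0.19 ± 0.04, and VIM, which did not pass under DMSO, -0.07 ± 0.03 and -0.12 ± 0.04 in the same deposited tables of the authors.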
